A study of Mus musculus with 13 samples.

Results

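The genes of the mitogen-activated protein (MAP) kinase cascade were examined for binding of the glucocorticoid receptor (GR) in mouse embryonic fibroblasts. The genes were taken by symbol, as every mouse gene named Mapk, Map2k, Map3k or Map4k followed by a number. This family was chosen with earlier results of these data known. The gene table holds 50 such genes among 49997 genes, and 49 of the 50 encode a protein. In all, 26 of the 50 had a peak in at least 1 of the 7 deposited peak lists and 24 had none. The symbols took in 43 kinases and 7 genes that encode no kinase, namely the JNK-interacting scaffolds Mapk8ip1, Mapk8ip2 and Mapk8ip3, Mapk1ip1, Mapk1ip1l, Map3k7cl and the non-coding Map2k3os.

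GR was precipitated with 1 antibody and the bound DNA sequenced (ChIP-seq) in 13 libraries of male C57BL/6 fibroblasts, taken from embryos of 13.5 days and grown for 7 days. Cells were wild type (GR wt/wt), homozygous for a zinc finger change of the receptor (GR Zn/Zn, called C437G in the labels and mutant below) or GR knockout (GRKO/KO). All cells received dexamethasone (Dex, a synthetic glucocorticoid) at 1 µM for 16 h. The 3 wild-type, 4 mutant and 2 knockout libraries of the Dex+LPS arm also received lipopolysaccharide (LPS, a bacterial stimulus that activates MAP kinases) for 3 h. The labels give its dose as 100 ng/µl. Dex alone was given to 2 wild-type and 2 mutant libraries. Peaks of the Dex+LPS arm came as 3 lists of peaks from merged libraries, with knockout peaks removed, divided by the authors according to genotype. Peaks found in wild-type cells alone are called wild-type-specific, those of mutant cells alone mutant-specific, and those of both shared. The mutant list is thus the shared plus the mutant-specific peaks, and the wild-type list the shared plus the wild-type-specific ones. The lists hold positions and no heights, so every value below is a number of peaks or a distance, the depth is unknown, and neither the genotype nor the fibroblast label could be checked by expression. The sources used here do not say how many embryos gave each culture.

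A MAP kinase cascade is a relay of protein kinases. MAP4Ks act on MAP3Ks, which phosphorylate MAP2Ks, which in turn activate the MAP kinases ERK, JNK and p38. In fibroblasts growth factors chiefly engage the ERK branch, and stress, cytokines and LPS chiefly the JNK and p38 branches. Glucocorticoids are known to dampen these branches, in part through the phosphatase gene Dusp1.

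Most MAP kinase cascade peaks were in the wild-type list alone, as were most peaks of the series. The genes had 83 Dex+LPS peaks, of which 70 were wild-type-specific, 8 shared and 5 mutant-specific. Over all genes there were 24673 such peaks, of which 18953 were wild-type-specific, 3533 shared and 2187 mutant-specific. Wild-type-specific peaks were assigned to 24 of the 50 genes (48%), shared peaks to 6 (12%) and mutant-specific peaks to 5 (10%). Over all genes of the table these shares were 15.4%, 4.75% and 2.72%, and over the 21900 protein-coding genes 30.6%, 9.37% and 5.36%. Any Dex+LPS peak was assigned to 52% of the cascade genes, 17.3% of all genes and 34.4% of protein-coding genes. The cascade genes were longer than most. Their median length was 40.6 kb, against 17.1 kb for protein-coding genes, and a longer gene can collect more peaks. Among protein-coding genes over 50 kb, 68.2% of 22 cascade genes and 59.2% of all 4945 had a wild-type-specific peak. Among those of 50 kb or less it was 33.3% of 27 and 22.2% of 16955. For shared peaks the direction differed by length, with 9.09% of cascade genes against 19.3% of coding genes over 50 kb, and 14.8% against 6.47% at 50 kb or less. For mutant-specific peaks it was 13.6% against 9.5% over 50 kb and 7.41% against 4.15% at 50 kb or less. The part of gene length in the shares was not tested beyond these values.

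Cascade genes bound in wild-type cells had a mutant peak about as often as protein-coding genes bound there did. A mutant peak of a gene need not lie at a wild-type site. No mutant peak was found at 16 of the 25 cascade genes bound in wild-type cells (64%, exact 95% binomial interval 42.5 to 82%). Of the 7219 protein-coding genes bound in wild-type cells, 66% lacked one. Peaks of both genotypes lay at 9 genes, which were Map2k2, Map2k3, Map3k8, Map3k14, Map3k20, Map4k3, Mapk14, Mapk8ip3 and Map3k7cl. At Map2k2, Mapk14 and Mapk8ip3 no peak was shared, and the mutant peak was mutant-specific. A mutant peak with no wild-type peak occurred at 1 gene, Map3k9, where 4.05% of protein-coding genes with a peak had that pattern. Of the 78 wild-type peaks of the cascade, 8 were shared (10.3%, interval 4.53 to 19.2%), and the 15.7% over all peaks of the series lay inside that interval. The cascade had 78 wild-type and 13 mutant peaks, 6 times as many, against 3.93 times over all peaks. Intervals cover counting error only, peaks of 1 gene are not independent, and merged lists allow no test across libraries.

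**Figure D1:**
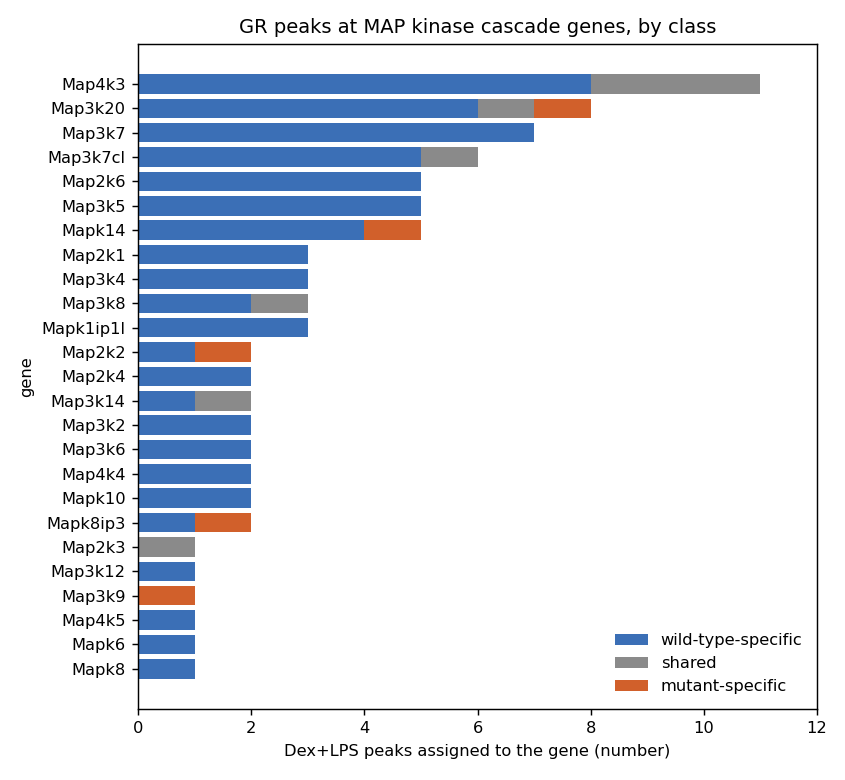
Number of Dex+LPS peaks (x axis) assigned to each of 25 of the cascade genes with a peak (y axis), stacked by class. Map4k3 has 11 peaks, 7 genes have 5 or more, and mutant-specific peaks appear once each at 5 genes.

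Of the 14 cascade peaks within 1 kb of a gene start, 12 were wild-type-specific, 2 mutant-specific and none shared. Over all 83 cascade peaks the numbers were 70, 5 and 8 in the same order. Of the 4 that overlapped the start itself, 2 were wild-type-specific and 2 mutant-specific. A wild-type-specific peak lay within 1 kb of the start at 11 of the 50 genes (22%, against 6.99% of protein-coding genes), a mutant-specific peak at 2 (4%, against 1.3%), and a shared peak at none (against 2%). In any class it was 12 genes (24%, against 9.89%). They included Map2k1, Map2k2, Map3k2, Map3k6, Map3k7, Map3k7cl, Map4k4, Mapk8, Mapk14, Mapk1ip1l and Mapk8ip3. Distances are those of the authors' annotation and run from the gene start to the middle of a peak. Every kinase tier was represented, and both MAP2Ks of the ERK branch, Map2k1 (MEK1) and Map2k2 (MEK2), were among the genes. Their wild-type-specific peaks lay 307 and 127 bp into the gene.

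RefSeq promoter windows (GRCm38.p6, 250 bases before to 50 after a start) were at hand for 38 of the 50 genes, 50 windows in all. A wild-type-specific peak touched 5 of these windows (10%, against 3.29% of all 32851 windows), a mutant-specific peak 2 (4%, against 0.56%), and a shared peak none (against 1.05%). Each sequence below holds a peak of 1 class, and none holds a shared peak, so the classes cannot be compared within a start. The windows of Map3k12 and Mapk8, also touched by a wild-type-specific peak, are not printed. Mapk14 and Mapk8ip3 carry a mutant-specific peak, Map3k7 a wild-type-specific one. Map3k6 and Mapk6 were added after their values were seen, as further windows with a wild-type-specific peak. Each window is 300 bases, written 5′ to 3′ on the strand of the gene, and capitals mark the bases inside the peak.

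Mapk14, chr17:28691092-28691391, plus strand, mutant-specific peak:
Mapk14: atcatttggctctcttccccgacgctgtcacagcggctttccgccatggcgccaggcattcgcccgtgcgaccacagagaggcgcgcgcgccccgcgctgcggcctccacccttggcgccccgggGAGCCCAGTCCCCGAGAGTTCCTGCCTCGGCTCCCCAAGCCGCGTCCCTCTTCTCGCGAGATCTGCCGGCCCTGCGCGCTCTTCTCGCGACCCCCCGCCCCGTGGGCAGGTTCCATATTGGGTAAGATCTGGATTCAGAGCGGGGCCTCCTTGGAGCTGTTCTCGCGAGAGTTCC

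Mapk8ip3, chr17:24936928-24937227, minus strand, mutant-specific peak:
Mapk8ip3: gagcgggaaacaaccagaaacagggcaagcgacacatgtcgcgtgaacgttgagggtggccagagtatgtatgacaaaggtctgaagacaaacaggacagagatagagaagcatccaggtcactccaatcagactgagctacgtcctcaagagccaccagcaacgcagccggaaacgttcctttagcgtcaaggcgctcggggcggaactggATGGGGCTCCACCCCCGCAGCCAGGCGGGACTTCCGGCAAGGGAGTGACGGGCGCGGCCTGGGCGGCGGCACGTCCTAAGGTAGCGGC

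Map3k7, chr4:31963857-31964156, plus strand, wild-type-specific peak:
Map3k7: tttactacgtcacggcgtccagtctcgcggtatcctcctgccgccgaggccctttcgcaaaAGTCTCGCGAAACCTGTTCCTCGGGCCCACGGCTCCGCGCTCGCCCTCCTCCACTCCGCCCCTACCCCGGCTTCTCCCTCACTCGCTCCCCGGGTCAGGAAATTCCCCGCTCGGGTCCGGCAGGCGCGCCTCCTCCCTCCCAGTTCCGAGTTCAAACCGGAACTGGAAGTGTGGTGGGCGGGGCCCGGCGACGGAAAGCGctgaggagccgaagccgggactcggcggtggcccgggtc

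Map3k6, chr4:133240568-133240867, plus strand, wild-type-specific peak:
Map3k6: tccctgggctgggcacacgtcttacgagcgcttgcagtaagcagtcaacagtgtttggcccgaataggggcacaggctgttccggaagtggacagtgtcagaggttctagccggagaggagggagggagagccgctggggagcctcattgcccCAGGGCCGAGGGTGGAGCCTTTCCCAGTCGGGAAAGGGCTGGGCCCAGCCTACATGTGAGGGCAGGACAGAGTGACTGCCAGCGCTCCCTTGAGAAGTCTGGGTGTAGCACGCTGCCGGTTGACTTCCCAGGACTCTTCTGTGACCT

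Mapk6, chr9:75409967-75410266, minus strand, wild-type-specific peak:
Mapk6: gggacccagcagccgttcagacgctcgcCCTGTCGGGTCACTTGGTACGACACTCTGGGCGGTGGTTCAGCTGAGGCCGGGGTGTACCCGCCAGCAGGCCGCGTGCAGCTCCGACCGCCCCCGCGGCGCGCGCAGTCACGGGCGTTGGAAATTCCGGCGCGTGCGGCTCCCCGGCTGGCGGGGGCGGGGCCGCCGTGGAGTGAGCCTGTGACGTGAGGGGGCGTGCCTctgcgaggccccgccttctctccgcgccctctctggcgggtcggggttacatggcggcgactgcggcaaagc

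These are GC-rich starts. The windows were 68.7% G or C at Mapk14, 60.7% at Mapk8ip3, 69% at Map3k7, 62% at Map3k6 and 73.7% at Mapk6. The median was 64.5% over the cascade windows, 52.7% over all windows and 63% over all windows touched by a peak. In each window 5 motifs were searched on both strands. They were ACANNNTGT, the palindromic core of a glucocorticoid response element, AGNACA, 1 arm of such an element, TGANTCA for AP-1, GGANTTTCC for NF-kB and TTCNNTTTC for interferon response elements. A full element can hold the core and the arm at once, so these matches may overlap.

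No printed peak held the palindromic core in the bases shown, and the single core, in the Map3k6 window, began at position -179 from the start, outside the peak. The core was in 6% of cascade windows and 6.85% of all windows. The arm lay inside the peak at Map3k6 (position -34) and at Mapk14 (position 32), and outside it at Mapk8ip3 (position -157). The arm was in 38% of cascade windows and 50.5% of all windows. Among windows touched by a peak the order was the other way, 4 of 7 cascade windows (57.1%) against 37.5% of all such windows. The 4 include the window of Map3k12, which is not printed. The NF-kB letters were found inside the wild-type-specific peaks of Map3k7 (position -92) and Mapk6 (position -104), in each as GGAAATTCC. That motif was in 2 of the 50 cascade windows (4%), against 1.25% of all windows. Among windows touched by a peak it was in 2 of 7 (28.6%), against 2.43%, and the core in 1 of 7 (14.3%), against 5.17%. AP-1 and interferon letters were in none of the 7 cascade windows touched by a peak, against 11.5% and 8.1% of all such windows. With 7 windows these shares are only a description. The matches describe the letters and not receptor contacts.

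At Mapk14, the gene of p38 alpha, wild-type and mutant peaks lay side by side at the start. Mapk14 spans bases 28691342 to 28748405 of chromosome 17 (GRCm38). The mutant-specific peak (28691217 to 28691416) overlapped the start, where the body of the neighbouring Slc26a8 also reaches, and a wild-type-specific peak (28691443 to 28691642) began after a gap of 26 bp, 200 bp into the gene. Further wild-type-specific peaks lay 2.03, 15.6 and 60.7 kb from the start, the last of them downstream of the gene. That last peak (28751898 to 28752097) lay between Mapk14 and Mapk13, another p38 gene (28769286 to 28778704). Its place among the Mapk14 peaks rests on the authors' assignment. Of all 2187 mutant-specific peaks of the series, 4.16% had a wild-type peak within 200 bp. The shared list holds overlapping peaks by its name, so adjacent peaks count as different sites. With peaks up to 1 kb apart taken as 1, the Mapk14 start became a shared site.

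With Mapk14 counted, 5 of 13 MAP kinase genes had a wild-type-specific peak (38.5%, against 30.6% of protein-coding genes). A mutant-specific peak was at 1 of them, Mapk14, and a shared peak at none. The tier had 11 peaks, of which Mapk14 held 5. Mapk10 (JNK3) had 2 wild-type-specific peaks, and Mapk6 (ERK3) and Mapk8 (JNK1) had 1 each. The Mapk8 peak lay 142 bp into the gene, and those of Mapk10 82.4 and 239 kb into a gene of 304 kb. The wild-type-specific peak in the Mapk6 window printed above (75410039 to 75410238 on chromosome 9) is named for the neighbouring 4933433G15Rik by the authors' annotation and is not among the 83. Genes with no peak assigned included Mapk3 (ERK1), Mapk9 (JNK2) and the p38 genes Mapk11, Mapk12 and Mapk13. Mapk11 encodes p38 beta, a close relative of the Mapk14 product.

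Among the 7 MAP2K genes, peaks were at all but Map2k5 and Map2k7. There were 11 wild-type-specific peaks, 1 shared and 1 mutant-specific. Map2k6 and Map2k3 both encode activators of p38 and differed in class. Map2k6 had 5 wild-type-specific peaks and no other, all inside the gene, from 40.2 to 113 kb from its start, and the nearest mutant peak to any of them was 343 kb away. Map2k3 had a single peak, which was shared, 3.4 kb into the gene (chromosome 11, 60935352 to 60935551). Map2k2 (MEK2) had the wild-type-specific peak at its start and a mutant-specific peak 23.3 kb from it, downstream of the gene. Map2k1 (MEK1) had 3 and Map2k4, an activator of JNK, 2 wild-type-specific peaks. Map2k5, whose product activates ERK5, is 218 kb long and had no peak.

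**Figure D2:**
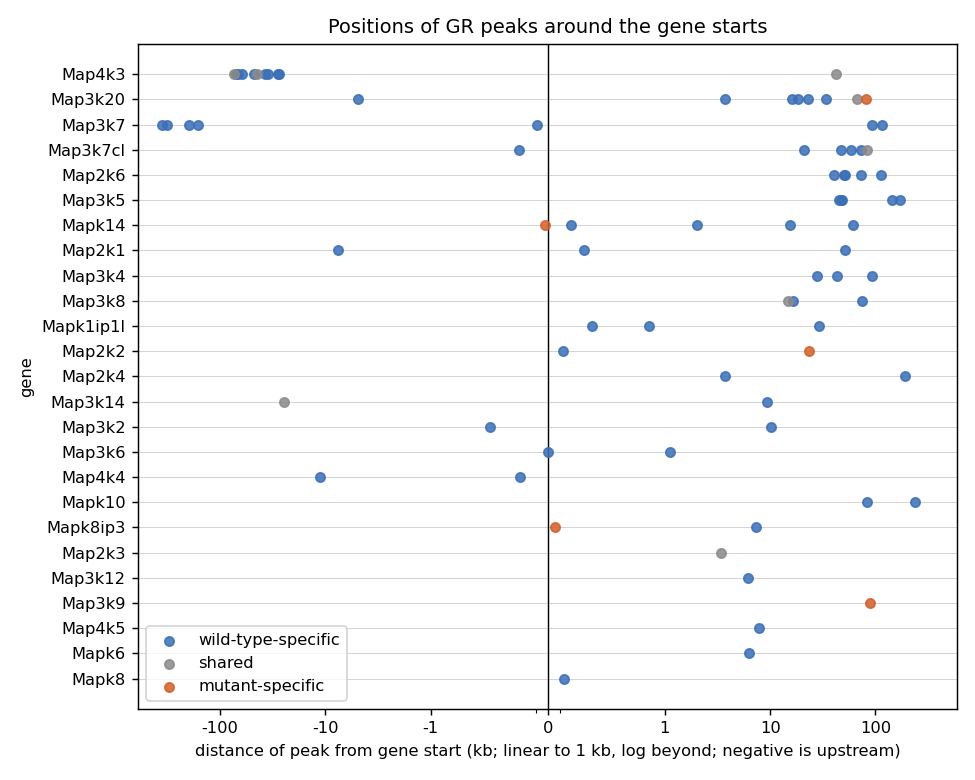
Distance of 81 Dex+LPS peaks from the start of their gene (x axis, kb, linear to 1 kb and logarithmic beyond, negative upstream), 1 row per gene, coloured by class. Peaks within 1 kb of the start are wild-type-specific except for a mutant-specific peak each at Mapk14 and Mapk8ip3. The 8 shared peaks all lie over 1 kb from a start.

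The MAP3Ks were the tier with most peaks, 34 over 18 genes, of which 29 were wild-type-specific, 3 shared and 2 mutant-specific. Map3k20, also called ZAK, a kinase that responds to stalled ribosomes, had 8 peaks, 6 of them wild-type-specific, 1 shared and 1 mutant-specific (chromosome 2). Its classes did not intermix along the gene. The wild-type-specific peaks ran from 4.89 kb upstream of the start to 33.8 kb inside, within 38.9 kb (72280647 to 72319512). The shared peak followed at 66.1 kb (72351627 to 72351826), where the body of Gm52556 also lies, and the mutant-specific peak at 81.1 kb (72366635 to 72366834).

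Map3k7, the gene of TAK1, a kinase that relays Toll-like receptor and interleukin-1 signals to NF-kB, JNK and p38, had 7 peaks, every one wild-type-specific. One overlapped the start (31963918 to 31964117, chromosome 4) and is shown above, and the other 6 lay 91.8 to 354 kb from it, outside the gene. The nearest mutant peak to the start peak was 1277818 bp away. Map3k8 and Map3k14 take part in signalling to ERK and to NF-kB, and both had a shared peak. Map3k8 (TPL2), which activates MEK after LPS, had 2 wild-type-specific peaks and a shared peak 14.8 kb into the gene. A wild-type-specific peak lay 1.37 kb beyond that shared one. Map3k14 (NIK, a kinase of the non-canonical NF-kB pathway) had a wild-type-specific peak 9.34 kb into the gene and a shared peak 24.9 kb upstream (chromosome 11, 103292237 to 103292436).

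Map3k9 (MLK1) had a single peak, mutant-specific, 88.1 kb from its start and downstream of the gene (chromosome 12, 81692990 to 81693189). A wild-type peak assigned to another gene lay 4.17 kb from it. Over all mutant-specific peaks the median gap to a wild-type peak was 7.54 kb. Of the remaining MAP3K genes, Map3k4 had 3, Map3k2 and Map3k6 2, and Map3k12 1 wild-type-specific peak. The Map3k12 peak lay 6.18 kb into the gene by the authors' annotation, and it also fell wholly inside a RefSeq promoter window of that gene, whose start differs. The peaks of Map3k6 lay 2 bp and 1.13 kb from its start. None was assigned to Map3k1, Map3k3, Map3k10, Map3k11, Map3k13, Map3k15, Map3k19 or Map3k21.

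Map3k5 was the only cascade gene with a peak under Dex alone, and it had one in both wild-type libraries. Map3k5 encodes ASK1, a kinase that responds to oxidative stress and activates JNK and p38. Under Dex+LPS all 5 of its peaks were wild-type-specific and inside the gene. Of these, 3 lay together within 2961 bp (chromosome 10, 19979685 to 19982645), 45.3, 46.7 and 48 kb from the start. The Dex peak of wild-type library 1 (19982807 to 19983108) lay 161 bp from the nearest of them and that of library 2 (19981609 to 19981985) 276 bp. The Dex peaks overlapped neither a Dex+LPS peak nor each other, with 821 bp between them. They were centred 48.5 and 47.3 kb from the start.

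The wild-type Dex libraries had 1 and 1 cascade peak of 412 and 854 peaks, and the mutant libraries 0 and 0 of 53 and 60. The groups did not overlap, and the difference of 1 peak had p = 0.333 (exact permutation test, two-sided, 2 against 2 libraries), which is the smallest this design can give. Among protein-coding genes, 1.09% had a peak in wild-type library 1 and 1.86% in library 2. In mutant libraries 1 and 2 it was 0.142% and 0.183%, so few peaks were to be had at any 50 genes. Map3k5 lies on chromosome 10, and chromosomes 10 to 14 held 68.2% and 73.9% of the peaks of wild-type libraries 1 and 2. They held 26.4% and 31.7% of those of mutant libraries 1 and 2. Without these chromosomes no Dex peak was at a cascade gene. The part of that imbalance in the Map3k5 result was not tested. The labels do not tell whether these 4 libraries are separate cultures, so the p-value measures a spread that may be technical.

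**Figure D3:**
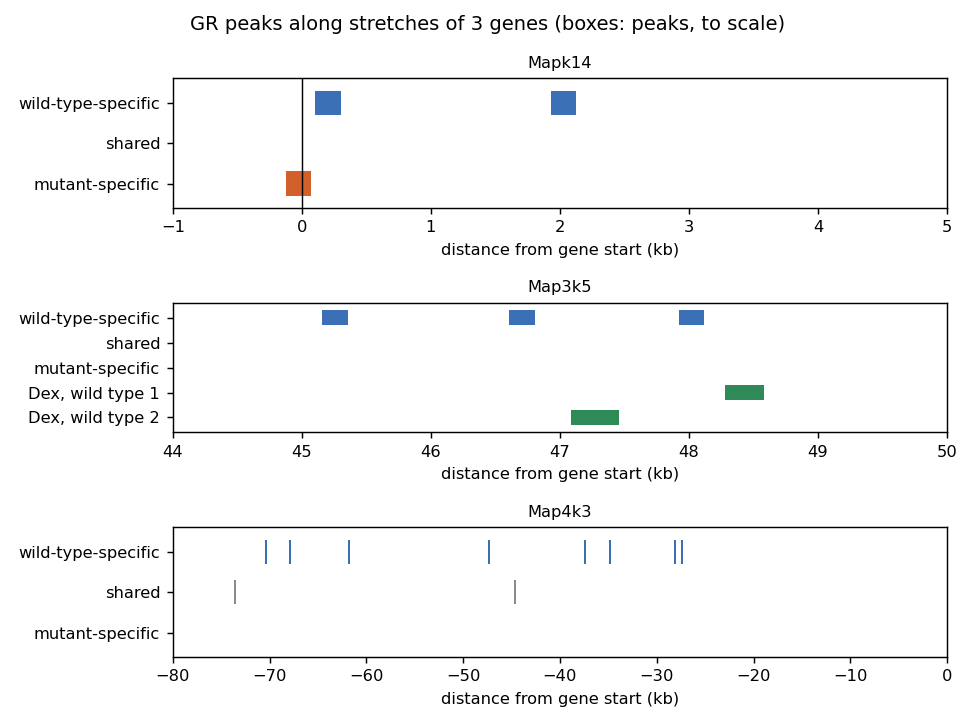
Peaks drawn to scale along stretches of Mapk14, Map3k5 and Map4k3 (x axis, distance from gene start in kb, negative upstream), 1 row per class or Dex library. The mutant-specific and wild-type-specific peaks at the Mapk14 start are 26 bp apart, the Dex peaks at Map3k5 lie beside wild-type-specific peaks without overlap, and 10 peaks lie upstream of Map4k3.

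Map4k3 had more peaks than any other cascade gene. It encodes GLK, a kinase tied to amino acid sensing and immune signalling, and had 8 wild-type-specific and 3 shared peaks (chromosome 17). Of the 11, 10 lay upstream of the start within 46.4 kb (80755273 to 80801696), the nearest 27.3 kb from it. In that stretch shared peaks lay at 44.7 and 73.6 kb upstream, and wild-type-specific peaks lay 2.5 and 2.99 kb from them. The third shared peak was inside the gene, 41.7 kb from the start. No other gene of the table spans any of these peaks, but a peak outside a gene body need not act on the gene named. With peaks taken by the gene body that holds them, the MAP4K tier fell from 14 peaks to 3. Map4k4 had 2 wild-type-specific peaks, 239 bp and 11.3 kb upstream, Map4k5 had 1, and Map4k1, a kinase of blood cells, and Map4k2 had none.

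Among genes of the symbol group that encode no kinase, 3 of 7 had peaks, 9 wild-type-specific, 1 shared and 1 mutant-specific. Mapk8ip3, a scaffold (JIP3) that holds JNK and its upstream kinases and links them to transport along axons, had the mutant-specific peak at its start (24936816 to 24937015) and a wild-type-specific peak 7.37 kb inside. These lay 7.11 kb apart. Map3k7cl, a gene named for its likeness to the end of Map3k7, had 5 wild-type-specific peaks and a shared one. The shared peak was 82.6 kb from the start, the last of 4 peaks spread over 36.2 kb beyond the gene. Mapk1ip1l had 3 wild-type-specific peaks, 376 bp, 868 bp and 29.2 kb from its start.

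Peaks were unevenly divided among the genes. With 5 or more peaks each, Map4k3, Map3k20, Map3k7, Map3k7cl, Map2k6, Map3k5 and Mapk14 held 47 of the 83 (56.6%). They were 26.9% of the 26 bound genes, where 16.5% of protein-coding genes with a peak had as many. The cascade genes were also longer, and these shares were not split by gene length. In these 7 genes 40 peaks were wild-type-specific, 5 shared and 2 mutant-specific. In the 19 others 36 peaks were left. Inside gene bodies the coding cascade genes had 13.9 wild-type-specific peaks per Mb, against 8.96 over all protein-coding genes. For shared peaks the densities were 1.29 and 1.61 per Mb, and for mutant-specific peaks 0.967 and 1.01, the last resting on 3 peaks.

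**Figure D4:**
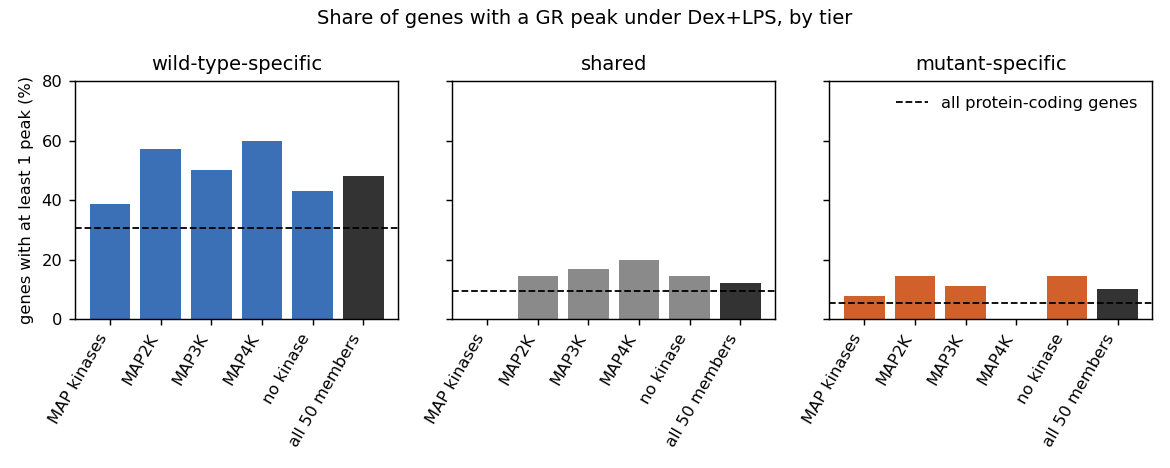
Share of genes with at least 1 peak (y axis, percent) in each tier of the cascade and over all 50 genes, in 1 panel per class. The dashed line gives the share of protein-coding genes, 30.6%, 9.37% and 5.36%. The wild-type-specific share runs from 38.5% of MAP kinases to 60% of the 5 MAP4Ks.

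The position of cascade peaks was set beside that of all peaks, without a test. Of the 70 wild-type-specific peaks, 57.1% were inside the gene, against 47.6% over all such peaks, and 14.3% lay more than 100 kb from the start, against 30.3%. Within 5 kb of the start lay 24.3% of them, against 17.1%, and the median distance was 31.5 kb, against 42.3 kb. The 8 shared and 5 mutant-specific peaks are too few for such shares, and none of them lay more than 100 kb from a start. The median gap from a wild-type-specific peak to the nearest mutant peak was 106 kb, against 107 kb over all such peaks.

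A list of 68 other pathway genes held upstream regulators, scaffolds, effectors, inhibitors, phosphatases and transcription factors. Of these, 36 (52.9%) carried wild-type-specific peaks, 17 (25%) shared ones and 9 (13.2%) mutant-specific ones. In the 50 cascade genes these shares were 48%, 12% and 10%, and the difference was not tested. Over protein-coding genes they were 30.6%, 9.37% and 5.36%. Shared peaks were at 6 of 11 inhibitors, 4 of 9 transcription factors, 3 of 21 upstream genes, 1 of 6 scaffolds, 1 of 11 effector kinases and 2 of 10 phosphatases. Inhibitors and transcription factors also had the highest shares of genes with wild-type-specific peaks (72.7% and 77.8%) and with mutant-specific peaks (36.4% and 33.3%). As a share of wild-type peaks, shared peaks were 23.8% at inhibitors, 22.2% at transcription factors and 37.5% at effector kinases, the last resting on 3 peaks of 1 gene. No difference between these groups was tested. Mapkapk2, the p38 substrate kinase that stabilises cytokine mRNAs, had 3 shared peaks and no other. Rras, a small GTPase, had 1 shared and 2 mutant-specific peaks.

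The group listed as inhibitors also holds the mRNA decay factor genes Zfp36 and Zfp36l1, with 1 and 3 of its 7 mutant-specific peaks. Zfp36l1 had 3 peaks of wild-type cells alone, 2 shared and 3 of mutant cells alone. Rasa1, a Ras GTPase-activating protein gene, had 5, 2 and 2 in the same order, and Spry2, an antagonist of receptor tyrosine kinase signals, had 6, 3 and 0. Among transcription factors that MAP kinases control, Jun had 9, 2 and 2 peaks, Fos 2, 2 and 2, and Myc 1, 0 and 4. Under Dex alone, Rasa1 had 1 peak in mutant library 1, and the transcription factor gene Mef2c 1 in wild-type library 1. No other gene of the pathway list had a Dex peak. Mutant-specific peaks were at 0 of 10 phosphatases, 0 of 11 effector kinases and 0 of 6 scaffolds, where 5.36% of protein-coding genes had one, so groups of this size say little. The phosphatases on the list are dual-specificity enzymes that switch MAP kinases off. Dusp6, specific for ERK, had 9 wild-type-specific and 5 shared peaks, while Dusp1 had 11 wild-type-specific peaks and no other.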

How the data were processed

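Peak positions and distances of the 7 lists are in base pairs of mm10, and per the file headers the deposited tables give no count, score, height or p-value of a peak. Tools named in the submitters' processing notes, without their steps, are MACS2 2.1.0, BWA 0.7.13 and Picard 1.119. Per the file names, Dex+LPS libraries were merged, knockout peaks removed and a false discovery rate threshold used for the Dex lists. Merged peaks are all 200 bp wide, and the number of peaks in a list also moves with how many libraries were merged and how deeply they were read.

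Genes were taken from the authors' annotation and matched by Entrez identifier to the RefSeq table (GRCm38.p6), and all peaks of cascade genes matched. The shared peaks were those of the authors' shared list. Dex peaks were compared with Dex+LPS peaks by an overlap of at least 1 bp, tested on simulated intervals and against bedtools 2.31.1. Shares carry exact (Clopper-Pearson) 95% intervals. Software was Python 3.11.15 with scipy 1.17.1, pandas 2.3.3, matplotlib 3.10.9 and numpy 2.4.6. Genes given with values were those with a shared, mutant-specific or Dex peak or with 5 or more wild-type-specific peaks. Of the pathway list they were those with 3 or more shared plus mutant-specific peaks, and Dusp1. The Dex peaks of that list were added after their values were seen. Other cascade genes with values, and the genes near starts, were singled out after their values were seen. The genes and lists were chosen with earlier results of these data known. The protein-coding background, the split by gene length and the 1 kb limits at starts were chosen after seeing the data. No genome sequence was used, so motifs were searched in promoter windows and not in peaks. The values of 1 cascade gene are not reported here, and it enters the counts only.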

Additional observations from a re-analysis of the deposited data

How the results depend on the processing

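Of the alternatives, 52 kept the value within 1.5 times the main count or within its interval, and 12 did not. Some of the 52 could not have moved, so the tally is no measure of stability. Counting only kinase genes cannot change the peaks of a kinase tier. With 1 cascade peak in each wild-type and 0 in each mutant Dex library, leaving out any library must give 1. Taking the gene whose body holds the peak left 50 peaks. Mutant-specific peaks were then at 3 genes in place of 5, no gene had mutant peaks only (0 in place of 1), MAP3Ks had 22 peaks in place of 34, MAP4Ks 3 in place of 14, genes without a kinase 5 in place of 11, and 100% of peaks lay inside the gene by construction. Without chromosomes 10 to 14, which carry 15 of the 50 genes and 23 of the 83 peaks, counts of genes can only fall or stay. Mutant-specific peaks were then at 3 genes, and 0 genes had mutant peaks only. Wild-type peaks only were at 10 genes and peaks of both genotypes at 6, in place of 16 and 9. Of the wild-type peaks 10.5% were shared, against 10.3% with all chromosomes. The Dex difference was 0. Of the Dex peaks at Map3k5, 0 of 2 overlapped a Dex+LPS peak, 1 had its centre within 500 bp of one, and 2 had an edge within 1 kb, a limit chosen after seeing the data. The share of wild-type peaks that were shared ranged from 8.51 to 12% over the alternatives. With peaks within 1 kb of each other counted as 1, the number of genes with a shared peak was 7 in place of 6. Leaving out each Dex library in turn gave a difference of 1 in each case, as a value with no test. Same-numbered Dex libraries share only a number in the labels. With the replicate block the difference was 1 and the exact sign-flip permutation p was 0.5, the smallest that 2 pairs allow. The motif search in the central 100 bp of peaks was not run. The lists carry no peak scores, so no stricter threshold could be set, and the unknown depth limits any reading of a missing peak.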
